A study of Mus musculus with 24 samples.

Results

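The 10 genes described here encode maturation-promoting factor (MPF), the kinase that drives meiotic division, and the proteins that switch it on, hold it at metaphase II and shut it off. They were taken as 10 listed symbols, Mos, Ccnb1, Ccnb2, Cdk1, Cks2, Fbxo43, Wee2, Cdc25b, Cdc20 and Plk1, and matched to Ensembl identifiers through the GRCm38 annotation. All 10 were found among the 55487 genes of the deposited files. The RNA came from Nlrp14 knockout (KO) and wild-type (WT) mice, in work on how the loss of NLRP14, a member of the NLR protein family that oocytes express, bears on fertility and development. The 8 groups were KO and WT germinal vesicle (GV) oocytes, KO and WT metaphase II (MII) eggs, KO and WT late pronuclear (PN5) zygotes, and KO and WT 2-cell embryos. Each group had 3 libraries, and each library pooled 5 oocytes or embryos. The strain, the age of the mice, the genotype of the sires and the deleted part of Nlrp14 are not given in the sources used here.

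In mammalian oocytes MPF is CDK1 bound to a B-type cyclin. WEE2 holds it inactive in the prophase-arrested GV oocyte by phosphorylating CDK1, and CDC25B removes that phosphate when meiosis resumes. The ovulated egg then waits at metaphase II, where MOS drives the MAP kinase pathway and EMI2, the product of Fbxo43, blocks the anaphase-promoting complex (APC/C). At fertilisation a calcium signal and PLK1 lead to the destruction of EMI2, APC/C with its activator CDC20 destroys cyclin B, and the zygote leaves meiosis. The growing oocyte stores these mRNAs, many are lengthened or shortened at their poly(A) tails at maturation, and most maternal copies are cleared by the 2-cell stage, when the embryo's own genome becomes active. The library kit primes on poly(A), so a change in tail length and a change in the amount of mRNA cannot be told apart in these values.

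The principal transcript of each of the 10 genes held a polyadenylation signal, AATAAA or ATTAAA, within its last 100 nt, as did 73.4% of 21864 coding genes. The cytoplasmic polyadenylation element spelled TTTTAT or TTTTAAT, the site read by CPEB when stored oocyte mRNAs are given longer tails, was found in that window in Cks2, Wee2 and Cdc20, and in 16.3% of coding genes. Counted from the start of the signal, the nearest element began at -22 nt in Cks2 and -13 nt in Cdc20, before the signal. In Wee2 it began at 8 nt, after the signal. Only the transcript strand was searched, the search did not reach the rest of the UTR, and nothing about tail length follows from it. The 30 bases around the signal are shown for the stage-regulated Mos and for those 3 genes, 5′ to 3′ as in GENCODE M21 transcripts on GRCm38, with the signal and the element in capitals.
Mos, chr4:3870661-3870690, minus strand: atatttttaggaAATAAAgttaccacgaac
Cks2, chr13:51650609-51650638, plus strand: gTTTTATtttacctgttttgttaAATAAAg
Wee2, chr6:40466780-40466809, plus strand: tcattgtaAATAAAgaTTTTATcttatcca
Cdc20, chr4:118432912-118432941, minus strand: tTTTTATTTTATtttttctAATAAAgttcg

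Levels are FPKM, fragment counts scaled by transcript length and library size, so they are relative levels within a library, with no spike-in. With pooled oocytes or embryos, fewer cells and less RNA per cell cannot be told apart. The deposited values imply 7.65 to 12.3 M fragments per library. Nlrp14 stood at 1.46% of its WT mean in KO GV oocytes, 5.02% in MII eggs, 3.24% in PN5 zygotes and 24.9% in 2-cell embryos, and the oocyte markers were at 1 FPKM or more for at least 9 of 10 genes in every group. KO GV replicate 3 was the lowest of its group for 8 of the 10 regulators, KO MII replicate 2 for 6, WT PN5 replicate 1 for 7 and WT 2-cell replicate 3 for 6. WT MII replicate 1 was also lowest for 8, in a group whose libraries lay close together. In KO GV replicate 3, KO MII replicate 2 and WT PN5 replicate 1, the slope of level on gene length was the steepest of the group, at -0.32, -0.20 and -0.27 on the log2 scale per doubling of length. WT 2-cell replicate 3 had a length slope of -0.14, against -0.08 and -0.05 in the other WT 2-cell libraries. Its slope on GC content was -0.46 per 10 points, against -0.19 and -0.21 in those libraries. In KO 2-cell replicates 1, 2 and 3 the GC slopes were -0.47, -0.49 and -0.41, and the length slopes -0.14, -0.12 and -0.10. Zygote libraries of KO and WT did not overlap in either slope. Their length slopes were -0.01, -0.03 and 0.01 in KO and -0.27, -0.16 and -0.07 in WT. Their GC slopes were -0.28, -0.24 and -0.36 in KO and -0.88, -0.52 and -0.37 in WT. The part of these slopes in the results was not tested. At the 2-cell stage the summed oocyte markers ran from 3781 to 4542 FPKM in KO and from 1170 to 1604 FPKM in WT embryos, with all 10 markers at 1 FPKM or more in both. The 9 matched 2-cell markers summed to 1117 to 1561 FPKM in KO and 797 to 984 FPKM in WT embryos, with 8 of 9 at 1 FPKM or more in both. In zygotes these 9 summed to 26.8 to 54.1 FPKM in KO and 73.8 to 108 FPKM in WT. Of them 3 in KO and 6 in WT zygotes were at 1 FPKM or more. The summed oocyte markers overlapped in zygotes, at 4357 to 5367 FPKM in KO and 4405 to 6843 FPKM in WT. Granulosa markers summed to 7.71 to 13.3 FPKM in KO and 26.5 to 38.7 FPKM in WT 2-cell embryos. Of these 15 markers 3 were at 1 FPKM or more in each genotype, Cyp19a1, Tnfaip6 and Kitl in KO and Amhr2, Tnfaip6 and Kitl in WT, and 6 in KO and 7 in WT were listed at 0 in every library. Blood and stroma markers summed to 13.6 to 21.6 FPKM in KO and 45.8 to 77.9 FPKM in WT embryos, with Hba-a1 and Pecam1 the 2 of 8 at 1 FPKM or more in each, and 4 in KO and 3 in WT listed at 0 in every library. The part of these differences in the results below was not tested.

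Differences between KO and WT in these mRNAs passed the test at the 2-cell stage and at no earlier stage; whether the differences changed between stages was tested separately, as given further on. Calls are genes whose limma p, with Benjamini-Hochberg adjustment over every gene tested, was under 0.05. By that rule 0 of 10 regulators were called in GV oocytes, 0 in MII eggs and 0 in zygotes, where the shares of all genes called were 0.043%, 2.28% and 6.1%. At an unadjusted limma p under 0.05 the counts were 0, 2 and 5 of the 10 regulators. Over all genes tested they were 1378 of 11635, 2544 of 8739 and 2964 of 9483. At the 2-cell stage Mos, Ccnb2, Cks2 and Wee2 were higher in KO embryos and Cdk1 and Cdc20 lower, so 4 rose and 2 fell, where 14.0% of all 13828 genes tested rose and 40.3% fell. The median difference of the 10 was 0.58 on the log2 scale, beside -0.44 over all genes tested. All 10 regulators passed the filter on low values in every comparison.

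Groups that do not overlap were counted as well. KO and WT libraries did not overlap for 1 regulator in GV oocytes, 1 in eggs, 5 in zygotes and 7 in 2-cell embryos, and over all genes tested the shares were 23.0%, 34.5%, 40.1% and 62.0%. The labels call the 3 libraries of a group biological replicates, and a p-value here reflects how far such pools vary. Scaling by the median of ratios moved the median of all genes at the 2-cell stage to -0.05, and with it 53.5% of calls were falls, where the FPKM as deposited gave 74.2%. In eggs it moved the median from -0.18 to 0.03, and falls made up 64.6% of calls in place of 85.9%. In zygotes it left the median at 0.01, with 15 calls of which 73.3% were falls in place of 578 of which 90.7% were. The 4 regulators called higher and Cdk1 kept their calls under it, and Cdc20 did not.

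**Figure D1:**
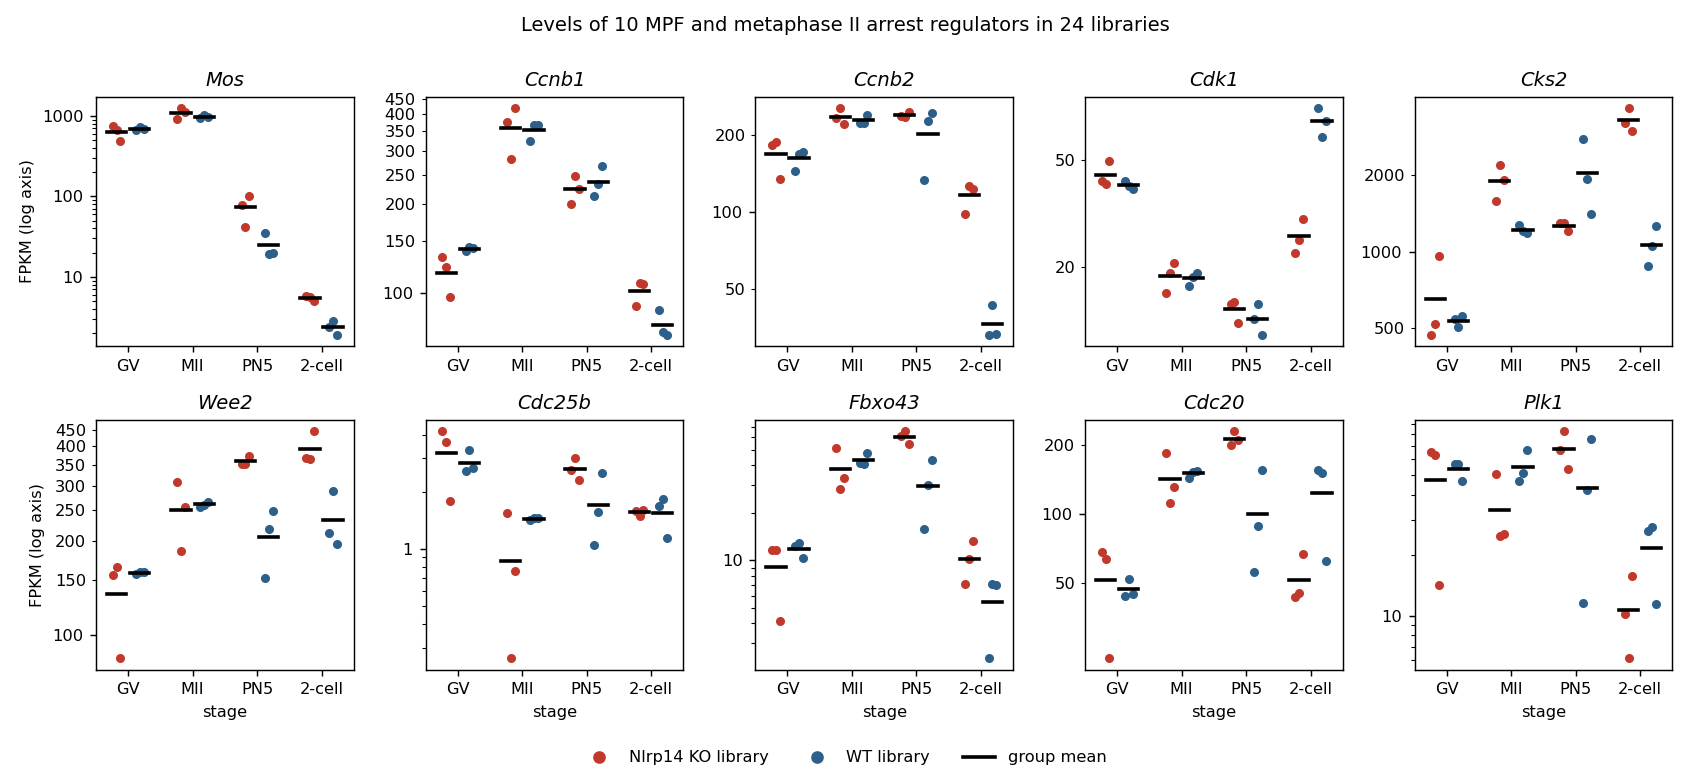
Level of each regulator in each library (points, FPKM on a log axis that differs between panels) by stage, with KO left of WT and a line at the mean of the 3 libraries. Mos drops from MII to the 2-cell stage in both genotypes, Cdk1 is highest in WT 2-cell embryos at 60.8 to 77.9 FPKM, and Cks2 is highest in KO 2-cell embryos at 2971 to 3668 FPKM.

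**Figure D2:**
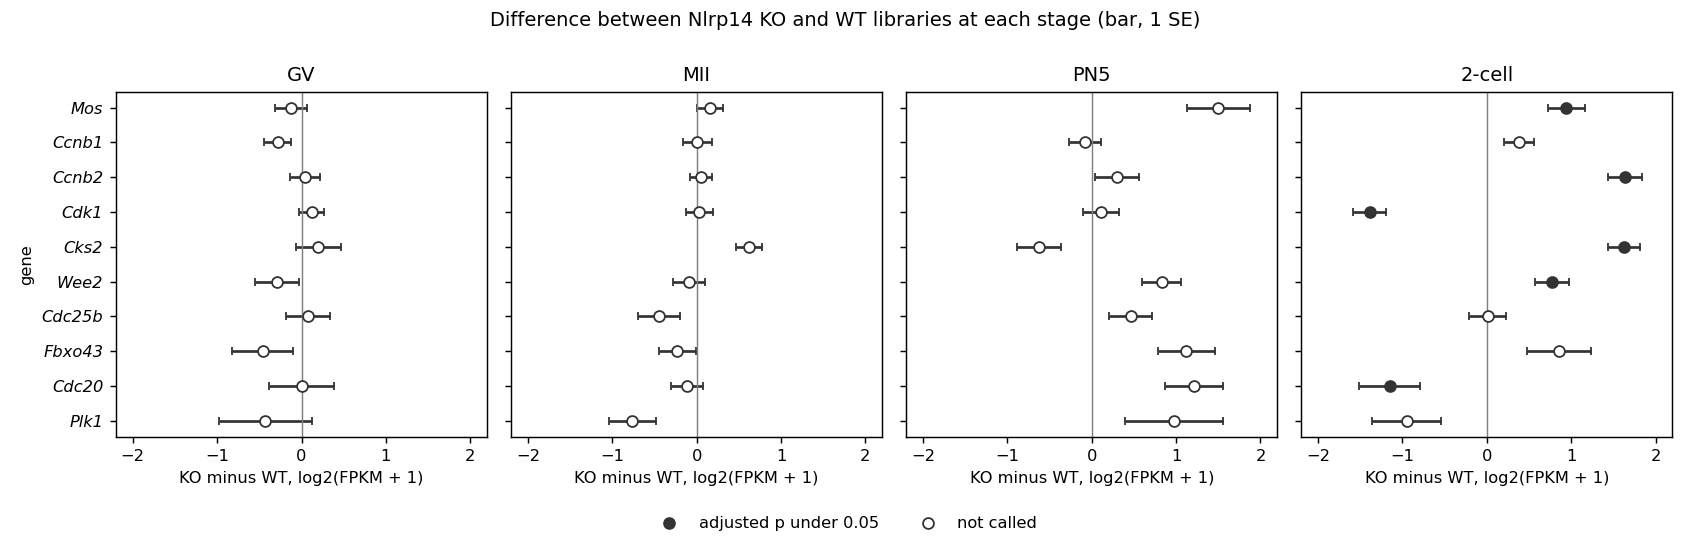
Difference between KO and WT on the log2(FPKM + 1) scale for each regulator at each stage, with a bar of 1 SE on each side. Filled points have an adjusted p under 0.05: they stand in the 2-cell panel, 4 to the right of 0 (higher in KO) and 2 to the left.

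Mos encodes the kinase that starts the MAP kinase cascade of metaphase II arrest. It is a gene of 1 annotated transcript of 1449 nt at chr4:3870657-3872105 (GRCm38, minus strand). Among the 10 regulators it had the steepest loss after fertilisation in both genotypes. KO GV oocytes had 756, 666 and 487 FPKM, against 661, 722 and 677 FPKM in WT. KO MII eggs had 915, 1251 and 1112 FPKM, against 939, 1013 and 963 FPKM in WT. The genotypes overlapped at both stages, and the differences of -0.13 ± 0.19 and 0.16 ± 0.15 on the log2 scale (± SE) had adjusted p of 0.83 and 0.48.

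In zygotes Mos was at 79.0, 41.5 and 102 FPKM in KO and 35.5, 19.4 and 20.0 FPKM in WT. Every KO zygote library was above every WT one. Set against the mean of its own MII eggs, that was 6.79 ± 2.80% in KO and 2.57 ± 0.942% in WT (SD, n = 3 each). The difference of 1.50 ± 0.37 on the log2 scale had an adjusted p of 0.055 and was not called; without WT PN5 replicate 1 it was 1.77 (adjusted p = 0.038), without WT PN5 replicate 3 it was 1.37 (adjusted p = 0.040), and with all 24 libraries in one fit its adjusted p was 0.0015.

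In 2-cell embryos Mos was at 5.80, 5.58 and 5.04 FPKM in KO and 2.40, 2.85 and 1.89 FPKM in WT. All KO embryo libraries stayed above all WT ones. These values stand for 67, 63 and 60 fragments in KO and 29, 40 and 21 in WT. The difference of 0.94 ± 0.22 was called (adjusted p = 0.0069), at 0.501 ± 0.0358% of the MII mean in KO and 0.245 ± 0.0490% in WT. In WT, Mos rose by 0.50 from GV to MII (adjusted p = 9.5e-05, and 0.11 with all 24 libraries in one fit), fell by 5.28 to PN5 (adjusted p = 0.00046) and fell by 2.90 more to the 2-cell stage (adjusted p = 6.1e-05). In KO the same steps were 0.79, -3.94 and -3.45, with adjusted p of 0.020, 0.00045 and 4.3e-05; the first was lost without KO GV replicate 2 (adjusted p = 0.057), KO MII replicate 2 (0.066) or KO MII replicate 3 (0.074). The difference between the genotypes' steps from MII to PN5 was 1.34 (adjusted p = 0.060) and was not called; it was 1.21 without WT PN5 replicate 3 (adjusted p = 0.048).

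Ccnb1 and Ccnb2 encode cyclins B1 and B2, the subunits that turn CDK1 into MPF. Ccnb1 lies at chr13:100778650-100786570 and Ccnb2 at chr9:70407692-70421547 (GRCm38, minus strand). The pair parted at the 2-cell stage, where Ccnb2 was called higher in KO embryos and Ccnb1 was not called. Ccnb2 in 2-cell embryos was at 98.3, 126 and 123 FPKM in KO and 33.0, 43.3 and 33.4 FPKM in WT, a called difference of 1.64 ± 0.20 (adjusted p = 0.0005). The lowest KO embryo library had more than any WT one. At the earlier stages the genotypes overlapped: KO zygotes had 238, 236 and 245 FPKM and WT zygotes 133, 227 and 244 FPKM (adjusted p = 0.44). Eggs had 232, 255 and 220 FPKM in KO and 222, 223 and 239 FPKM in WT. GV oocytes had 182, 188 and 134 FPKM in KO and 145, 168 and 171 FPKM in WT.

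Ccnb1 in 2-cell embryos was at 90.6, 108 and 107 FPKM in KO and 88.0, 74.3 and 72.3 FPKM in WT. The KO embryo libraries lay above the WT ones by a narrow gap. The difference of 0.38 ± 0.18 had an adjusted p of 0.11 and was not called; it became 0.92 (adjusted p = 0.0043) under scaling by the median of ratios, and its adjusted p was 0.049 with all 24 libraries in one fit. In GV oocytes Ccnb1 had 132, 122 and 96.9 FPKM in KO and 139, 143 and 142 FPKM in WT, which did not overlap, with a difference of -0.28 ± 0.16 (adjusted p = 0.56). In eggs it had 377, 282 and 419 FPKM in KO and 324, 366 and 368 FPKM in WT. In zygotes it had 200, 248 and 224 FPKM in KO and 212, 232 and 267 FPKM in WT. In both genotypes the FPKM of Ccnb1, a relative level, was thus highest in eggs, and the groups overlapped there and in zygotes.

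Over the stages, WT Ccnb1 rose by 1.31 from GV to MII (adjusted p = 8.5e-07) and fell by 1.59 from PN5 to the 2-cell stage (adjusted p = 0.00022). WT Ccnb2 rose by 0.49 (adjusted p = 0.00059) and fell by 2.39 (adjusted p = 0.00012) over the same steps. In KO 2-cell embryos Ccnb1 fell by 1.13 (adjusted p = 0.00015) and Ccnb2 fell by 1.05 (adjusted p = 0.00019) relative to KO zygotes. The step of Ccnb2 differed between the genotypes by 1.34 (adjusted p = 0.0049), a call lost under TPM (1.06, adjusted p = 0.067), and that of Ccnb1 had an adjusted p of 0.13. Ccnb1 values rest on an uncertain split of reads: its processed pseudogene Ccnb1-ps is 99.2% identical over 1287 nt and was listed at 2.27 to 5.09 times the FPKM of Ccnb1 in each library, most at the 2-cell stage. With the copies added to the parent gene, the 2-cell difference of Ccnb1 was 0.36 (adjusted p = 0.11), and its KO step from MII to PN5, called at -0.67 (adjusted p = 0.025), was -0.44 (adjusted p = 0.065). Its step from PN5 to the 2-cell stage then was -0.64 in KO (adjusted p = 0.0011) and -1.0 in WT (adjusted p = 0.0033).

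Cdk1, at chr10:69335146-69352938 (GRCm38, minus strand), encodes the kinase subunit of MPF, and it was the one regulator that rose in WT embryos after the zygote. In 2-cell embryos Cdk1 was at 22.5, 25.2 and 30.3 FPKM in KO and 77.9, 60.8 and 69.9 FPKM in WT. The highest KO embryo library was less than the lowest WT one. The difference of -1.39 ± 0.20 was called (adjusted p = 0.00087), and was -0.85 under scaling by the median of ratios (adjusted p = 0.0095). In zygotes the values were 14.6, 14.9 and 12.4 FPKM in KO and 12.9, 14.6 and 11.2 FPKM in WT, and the genotypes overlapped. From PN5 to the 2-cell stage Cdk1 rose in both genotypes, by 0.84 in KO (adjusted p = 0.0019) and by 2.34 in WT (adjusted p = 4.1e-05). The step differed between the genotypes by -1.50 (adjusted p = 0.00091). Rescaling to TPM left the KO rise at 0.25 (adjusted p = 0.23).

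In eggs Cdk1 was at 16.1, 19.0 and 20.8 FPKM in KO and 17.1, 18.4 and 19.1 FPKM in WT. In GV oocytes it was at 41.8, 40.8 and 49.6 FPKM in KO and 41.8, 40.0 and 38.9 FPKM in WT. At maturation it fell by 1.20 in KO (adjusted p = 0.0012) and fell by 1.10 in WT (adjusted p = 4.7e-06), the steps at which WT Ccnb1 and Ccnb2 rose. Under scaling by the median of ratios the KO fall was not called (-0.66, adjusted p = 0.068). By mean level the 8 groups ran from WT 2-cell embryos at 69.5 FPKM through GV oocytes at 44.1 in KO and 40.2 in WT, KO 2-cell embryos at 26.0, MII eggs at 18.6 in KO and 18.2 in WT, to zygotes at 14.0 in KO and 12.9 in WT. Neighbours in that order overlapped only where they were KO and WT of the same stage.

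The promoters were searched on both strands for CCAAT, the box bound by NF-Y, and for TTTGAA, a form of the cell cycle gene homology region. RefSeq gave 300 bases, from 250 before to 50 after the start on GRCm38.p6, for 8 of the 10 genes, and none was matched for Mos and Fbxo43. CCAAT was found in 8 of 8, beside 37.4% of 32851 promoters, and TTTGAA in 4 of 8 (Ccnb2, Cdk1, Cdc20 and Plk1), beside 17.9%. Both were found in the same 4 genes and in 6.95% of promoters. A match is a description of the letters and shows no binding. The promoters of Cdk1 and Ccnb2 are shown because both hold 3 CCAAT and 2 TTTGAA matches while the genes differed in opposite directions between KO and WT 2-cell embryos; capitals mark the matches, with ATTGG the CCAAT box of the other strand.
Cdk1, chr10:69352863-69353162, minus strand: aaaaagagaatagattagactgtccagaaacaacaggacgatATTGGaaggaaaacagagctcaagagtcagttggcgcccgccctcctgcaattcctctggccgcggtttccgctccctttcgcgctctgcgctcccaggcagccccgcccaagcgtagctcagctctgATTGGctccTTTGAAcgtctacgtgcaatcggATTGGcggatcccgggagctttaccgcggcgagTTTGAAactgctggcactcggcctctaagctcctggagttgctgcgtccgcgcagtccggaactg
Ccnb2, chr9:70421505-70421804, minus strand: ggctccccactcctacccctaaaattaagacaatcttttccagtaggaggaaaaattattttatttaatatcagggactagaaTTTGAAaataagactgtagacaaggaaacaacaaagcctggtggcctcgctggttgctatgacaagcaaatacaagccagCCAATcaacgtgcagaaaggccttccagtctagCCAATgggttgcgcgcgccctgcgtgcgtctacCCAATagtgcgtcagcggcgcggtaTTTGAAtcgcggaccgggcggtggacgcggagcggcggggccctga

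Cks2, at chr13:51645232-51650660 (GRCm38, plus strand), encodes a small CDK-binding protein, needed for female meiosis in the mouse, and it had the highest FPKM, a level per length, of the 10 in 2-cell embryos of both genotypes. Its 2-cell level was 3201, 3668 and 2971 FPKM in KO and 883, 1055 and 1265 FPKM in WT, a called difference of 1.63 ± 0.19 (adjusted p = 0.00042). All KO embryo libraries lay above all WT ones. In zygotes the order was the other way, at 1292, 1299 and 1205 FPKM in KO and 2761, 1933 and 1403 FPKM in WT, without overlap. That difference of -0.63 ± 0.26 had an adjusted p of 0.15. Without WT PN5 replicate 3 it was -0.87 (adjusted p = 0.020), without WT PN5 replicate 1 -0.38 (adjusted p = 0.19), and with length and GC trends removed -0.18 (adjusted p = 0.43). In eggs KO was above WT again, at 1588, 2199 and 1908 FPKM in KO and 1270, 1202 and 1190 FPKM in WT, with a difference of 0.62 ± 0.15 (adjusted p = 0.061) that was 0.75 without KO MII replicate 1 (adjusted p = 0.0045).

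In GV oocytes Cks2 was at 471, 520 and 962 FPKM in KO and 546, 505 and 561 FPKM in WT. The highest value is that of KO GV replicate 3, the library in which most other regulators were lowest. From PN5 to the 2-cell stage Cks2 rose by 1.37 in KO (adjusted p = 2e-05) and fell by 0.89 in WT (adjusted p = 0.032), and the steps differed by 2.26 (adjusted p = 0.00032). With length and GC trends removed the KO rise was 0.62 (adjusted p = 0.00066). The WT fall was lost without any one of 5 of the 6 libraries, with adjusted p from 0.054 to 0.14. The step from MII to PN5 differed by -1.25 between the genotypes (adjusted p = 0.045), and that call was lost without any one of 10 of the 12 libraries, with adjusted p from 0.054 to 0.11. It was kept without KO MII replicate 1 or WT PN5 replicate 3, and lost under 7 other settings, with adjusted p from 0.051 to 0.15. Reads of Cks2 could also be assigned to processed pseudogenes: Gm15452 matches it over 240 nt with 100% identity and was listed at 1.35 to 1.74 times its FPKM. With the copies added the 2-cell difference was 1.63 (adjusted p = 0.00039).

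Wee2 encodes the oocyte kinase that inhibits CDK1, and Cdc25b the phosphatase that undoes it. They lie at chr6:40439088-40466813 and chr2:131186949-131198497 (GRCm38, plus strand). Wee2 was called higher in KO 2-cell embryos, and Cdc25b was low in every library. In 2-cell embryos Wee2 was at 366, 365 and 447 FPKM in KO and 212, 288 and 195 FPKM in WT, without overlap. The difference of 0.77 ± 0.20 was called (adjusted p = 0.012), without KO 2-cell replicate 3 it was 0.68 (adjusted p = 0.052), and under scaling by the median of ratios 1.32 (adjusted p = 0.0014). Zygotes had 352, 352 and 373 FPKM in KO and 152, 218 and 249 FPKM in WT. The zygotes of the 2 genotypes did not overlap either, with a difference of 0.83 ± 0.23 (adjusted p = 0.065), which was 0.62 without WT PN5 replicate 1 (adjusted p = 0.047) and 0.98 without replicate 3 (adjusted p = 0.016); with all 24 libraries in one fit its adjusted p was 0.025.

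Eggs had 308, 185 and 256 FPKM of Wee2 in KO and 257, 260 and 266 FPKM in WT. GV oocytes had 155, 165 and 84.0 FPKM in KO and 156, 159 and 159 FPKM in WT. WT libraries of these stages lay close together, and the KO libraries spread to both sides in eggs. Wee2 rose from GV to MII in WT by 0.72 (adjusted p = 6.6e-06) and in KO by 0.92 (adjusted p = 0.034), the KO rise being lost without KO GV replicate 3 (0.61, adjusted p = 0.060), KO MII replicate 1 (0.75, adjusted p = 0.10) or KO MII replicate 3 (0.88, adjusted p = 0.096), with length and GC trends removed (0.68, adjusted p = 0.074) and with no filter on low values (adjusted p = 0.080). Its step from PN5 to the 2-cell stage was not called in either (adjusted p = 0.36 in KO and 0.59 in WT).

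Cdc25b never passed 4.17 FPKM. GV oocytes had 4.17, 3.64 and 1.79 FPKM in KO and 2.58, 3.32 and 2.66 FPKM in WT. Eggs had 1.54, 0.263 and 0.766 FPKM in KO and 1.41, 1.46 and 1.45 FPKM in WT, with a difference of -0.45 ± 0.25 (adjusted p = 0.25) that was -0.71 without KO MII replicate 1 (adjusted p = 0.019) and -0.20 without KO MII replicate 2 (adjusted p = 0.56). Zygotes had 2.62, 3.02 and 2.31 FPKM in KO and 1.05, 1.57 and 2.52 FPKM in WT, and 2-cell embryos 1.59, 1.49 and 1.60 FPKM in KO and 1.68, 1.84 and 1.14 FPKM in WT. The genotypes overlapped at all 4 stages. On the log2(FPKM + 1) scale such low levels understate fold changes. From GV to MII it fell by 1.19 in KO (adjusted p = 0.013, and 0.051 without KO GV replicate 2) and fell by 0.66 in WT (adjusted p = 0.00071).

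Fbxo43 encodes EMI2, the APC/C inhibitor of metaphase II arrest, and Cdc20 the APC/C activator that it opposes. They lie at chr15:36150060-36164884 and chr4:118432901-118437352 (GRCm38, minus strand). Every KO zygote library had more of both mRNAs than any WT zygote library, though neither difference was called, and in 2-cell embryos Cdc20 was called lower in KO. In zygotes Fbxo43 was at 61.7, 65.6 and 54.6 FPKM in KO and 15.7, 30.1 and 43.0 FPKM in WT. Its difference of 1.12 ± 0.34 had an adjusted p of 0.081, and 1.43 without WT PN5 replicate 3 was called (adjusted p = 0.014). Without WT PN5 replicate 1 it was 0.73 (adjusted p = 0.066). In zygotes Cdc20 was at 199, 229 and 210 FPKM in KO and 55.6, 88.4 and 155 FPKM in WT. Its difference of 1.21 ± 0.34 had an adjusted p of 0.070, and 1.58 without WT PN5 replicate 3 was called (adjusted p = 0.011), as was the difference with all 24 libraries in one fit (adjusted p = 0.044).

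In 2-cell embryos Fbxo43 was at 7.13, 10.2 and 13.3 FPKM in KO and 2.40, 7.06 and 7.01 FPKM in WT. KO was above WT by a narrow gap, with a difference of 0.86 ± 0.38 (adjusted p = 0.087), which was 1.33 under scaling by the median of ratios (adjusted p = 0.020) and 0.45 without WT 2-cell replicate 1 (adjusted p = 0.26). Cdc20 in 2-cell embryos was at 43.3, 45.0 and 66.7 FPKM in KO and 156, 151 and 62.3 FPKM in WT. WT 2-cell replicate 3 lay among the KO libraries. The difference of -1.15 ± 0.36 was called (adjusted p = 0.026), and the call rested on several libraries: it was lost without KO replicate 1 (-1.04, adjusted p = 0.064), KO replicate 2 (-1.07, adjusted p = 0.063), WT replicate 1 (-0.93, adjusted p = 0.093) or WT replicate 2 (-0.95, adjusted p = 0.098). Scaling by the median of ratios gave -0.61 (adjusted p = 0.16), and with no filter on low values the adjusted p was 0.080.

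Eggs had 51.7, 28.3 and 33.2 FPKM of Fbxo43 in KO and 41.1, 40.8 and 47.6 FPKM in WT, and 184, 111 and 131 FPKM of Cdc20 in KO and 144, 152 and 153 FPKM in WT. KO MII replicate 2 was lowest for both. GV oocytes had 11.6, 11.6 and 4.17 FPKM of Fbxo43 in KO and 12.3, 12.9 and 10.4 FPKM in WT. Their Cdc20 was at 67.9, 63.4 and 23.4 FPKM in KO and 43.8, 52.0 and 44.5 FPKM in WT, with KO GV replicate 3 lowest, and without that library the difference of 0.00 ± 0.39 became 0.48 (adjusted p = 0.040). In eggs the Fbxo43 difference of -0.23 became -0.48 without KO MII replicate 1 (adjusted p = 0.033). Both genes had the largest WT rises of the 10 from GV to MII, by 1.78 for Fbxo43 (adjusted p = 1.8e-06) and by 1.66 for Cdc20 (adjusted p = 6.7e-07). Between PN5 and the 2-cell stage Cdc20 fell by 2.04 in KO (adjusted p = 4.1e-05) and was not called in WT (adjusted p = 0.58), and the steps differed by -2.36 (adjusted p = 0.0042).

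Plk1, at chr7:122159439-122169873 (GRCm38, plus strand), encodes polo-like kinase 1, which acts on EMI2 and CDC25 proteins. No difference between KO and WT was called for it, and its libraries spread widely within groups. Zygotes had 66.9, 82.7 and 53.5 FPKM in KO and 11.6, 42.2 and 75.4 FPKM in WT. The genotypes overlapped, and the difference of 0.97 ± 0.58 (adjusted p = 0.28) was 1.54 without WT PN5 replicate 3 (adjusted p = 0.045) and 0.24 without WT PN5 replicate 1 (adjusted p = 0.61). Eggs had 50.5, 24.9 and 25.4 FPKM in KO and 46.9, 51.5 and 66.8 FPKM in WT, with a difference of -0.76 ± 0.28 (adjusted p = 0.13) that was -1.08 without KO MII replicate 1 (adjusted p = 0.0048) and -0.49 under scaling by the median of ratios (adjusted p = 0.24). In 2-cell embryos the values were 10.2, 6.14 and 15.8 FPKM in KO and 26.3, 27.6 and 11.4 FPKM in WT. WT 2-cell replicate 3 again lay among the KO libraries, and the difference of -0.95 ± 0.41 (adjusted p = 0.079) was -1.34 without it (adjusted p = 0.017) and -1.25 without KO 2-cell replicate 3 (adjusted p = 0.039). It was -0.63 without KO 2-cell replicate 2 (adjusted p = 0.23) and -0.44 under scaling by the median of ratios (adjusted p = 0.36). GV oocytes had 65.2, 63.4 and 14.3 FPKM in KO and 56.9, 57.0 and 47.0 FPKM in WT, with KO GV replicate 3 far below the rest. Between PN5 and the 2-cell stage Plk1 fell by 2.62 in KO (adjusted p = 0.0002) and was not called in WT (adjusted p = 0.36). The steps differed by -1.92 (adjusted p = 0.065), and by -2.49 without WT PN5 replicate 3 (adjusted p = 0.013), -2.31 without WT 2-cell replicate 3 (adjusted p = 0.034) and -2.22 without KO 2-cell replicate 3 (adjusted p = 0.050), but by -1.19 without WT PN5 replicate 1 (adjusted p = 0.12).

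At maturation most of the regulators rose in both genotypes. From GV to MII, 7 of 10 regulators rose in WT (Fbxo43, Cdc20, Ccnb1, Cks2, Wee2, Mos and Ccnb2) and Cdk1 and Cdc25b fell, where 31.1% of all genes rose and 52.8% fell. In KO, 6 rose and 2 fell, where 20.8% rose and 48.2% fell; Ccnb2, at 0.50 with an adjusted p of 0.069, was the one not called there. It was called under 5 alternatives, the median of ratios (1.06), TPM (0.71), length trend removed (0.66), length and GC trends removed (0.68) and all 24 libraries in one fit, with adjusted p from 0.0053 to 0.031. Plk1 was not called in either genotype. In limma the interaction of genotype with this step was called for 0 of 10 regulators, where 0.12% of all genes were called, and 0 had an unadjusted p under 0.05.

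From MII to PN5 Mos alone was called in WT, where 9.8% of all genes rose and 4.44% fell. Without WT PN5 replicate 3, 5 were called in WT, and 2 without WT PN5 replicate 1. In KO 4 rose (Fbxo43 by 0.71, Cdc25b by 1.03, Cdc20 by 0.61 and Plk1 by 1.05) and 3 fell (Mos, Ccnb1 by 0.67 and Cks2 by 0.57), where 22.5% rose and 10.4% fell. The adjusted p of the 6 beside Mos ran from 0.017 to 0.047. Leaving out 1 KO library gave from 1 to 9 called regulators in place of 7: 9 without KO MII replicate 1, 1 without KO MII replicate 3, KO PN5 replicate 1 or KO PN5 replicate 2, 3 without KO PN5 replicate 3 and 4 without KO MII replicate 2. With no filter on low values 1 was called. The interaction with this step was called for Cks2 alone, at 7.45% of all genes. The steps of Mos, Fbxo43, Wee2 and Cdc20 differed by 1.34, 1.35, 0.92 and 1.32, each with an adjusted p of 0.060 or 0.061. For this interaction 5 regulators were called without KO MII replicate 1 and 7 without WT PN5 replicate 3. The shares of all genes called in fits without 1 library are not given, so these counts are not set against them.

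From PN5 to the 2-cell stage 5 regulators fell in WT, Mos, Ccnb1, Ccnb2, Cks2 and Fbxo43, and Cdk1 rose, where 48.0% of all genes rose and 14.8% fell. WT Fbxo43 fell by 2.23 (adjusted p = 0.0027). In KO 7 fell, Mos, Ccnb1, Ccnb2, Fbxo43, Cdc25b, Cdc20 and Plk1, and Cdk1 and Cks2 rose, where 43.8% rose and 26.8% fell. The KO fall of Cdc25b by 0.51 (adjusted p = 0.017) was lost without KO PN5 replicate 1 (adjusted p = 0.063) or replicate 2 (0.077). It was also lost with the length trend removed (-0.23, adjusted p = 0.21), with length and GC trends removed (-0.04, adjusted p = 0.83) and with all 24 libraries in one fit (adjusted p = 0.078). Under scaling by the median of ratios falls made up 44.0% of WT calls from MII to PN5, against 31.2% as deposited, and 55.6% of KO calls, against 31.6%. From PN5 to the 2-cell stage they made up 36.6% of WT calls, against 23.6%, and under TPM 55.4% of KO calls, against 37.9%. From GV to MII scaling by the median of ratios gave 56.7% of KO calls, against 69.8%. The interaction was called for Ccnb2 and Cks2, which fell less or rose in KO (Ccnb2 not under TPM, as given above), and for Cdk1 and Cdc20, which rose less or fell, at 45.8% of all genes. The KO and WT comparisons and these stage steps share libraries.

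Within a library, ratios of regulators do not depend on a scaling factor common to all genes of that library. They can depend on the library slopes on length and GC content given above, as the paired genes differ in both. Fbxo43 has 4035 nt of exon and 44.1% GC, and Cdc20 1868 nt and 54.8% GC. The part of these slopes in the ratios was not tested. The ratio of Ccnb1 to Ccnb2 in 2-cell embryos was 0.922, 0.860 and 0.866 in KO and 2.66, 1.72 and 2.16 in WT, with means of 0.882 ± 0.0343 and 2.18 ± 0.475. The ratio of Fbxo43 to Cdc20 in 2-cell embryos was 0.165, 0.228 and 0.200 in KO and 0.0154, 0.0467 and 0.112 in WT, which did not overlap; in zygotes it was 0.286 ± 0.0248 in KO and 0.300 ± 0.0348 in WT, which did. The inhibitor and the activator of APC/C thus differed by a like factor between KO and WT zygotes, and by unlike factors between KO and WT 2-cell embryos. The ratio of Wee2 to Cdc25b in eggs was 200, 705 and 335 in KO and 183, 178 and 183 in WT. Its KO values rest on Cdc25b levels near 1 FPKM. In 2-cell embryos it was 252 ± 25.7 in KO and 152 ± 23.1 in WT, without overlap. In GV oocytes all 3 ratios were lower in every KO library than in any WT library. There the ratio of Ccnb1 to Ccnb2 was 0.701 ± 0.0426 in KO and 0.878 ± 0.0653 in WT, that of Fbxo43 to Cdc20 0.177 ± 0.00588 in KO and 0.255 ± 0.0231 in WT, and that of Wee2 to Cdc25b 43.2 ± 5.26 in KO and 56.0 ± 7.01 in WT. For Fbxo43 to Cdc20 and Wee2 to Cdc25b that is the opposite order to the 2-cell stage. No test was made on the ratios, and their overlap was not counted over other pairs of genes.

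**Figure D3:**
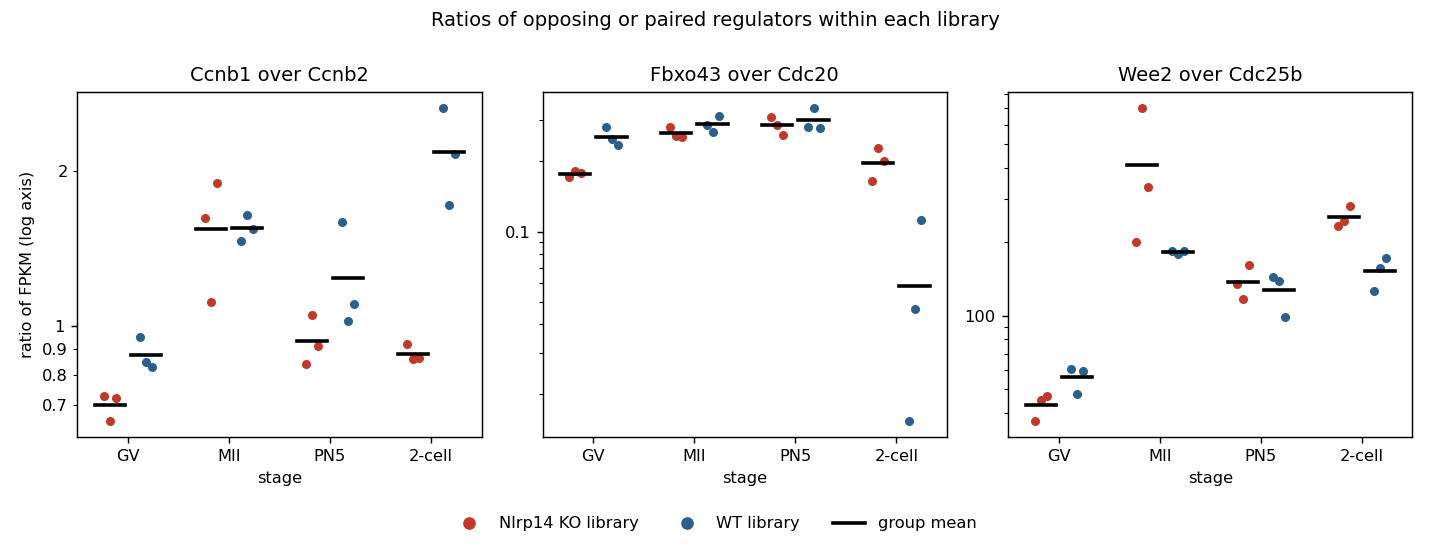
Ratio of FPKM of Ccnb1 to Ccnb2, Fbxo43 to Cdc20 and Wee2 to Cdc25b within each library (points, log axis) by stage, KO left of WT, with a line at the mean of 3 libraries. At the 2-cell stage the first ratio is 0.860 to 0.922 in KO and 1.72 to 2.66 in WT, and the genotypes are apart in all 3 panels.

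The rest of the pathway was followed through 8 lists with 75 genes, none of them among the 10; genes named below as higher or lower in KO 2-cell embryos had limma adjusted p from 0.00043 to 0.039. KO and WT differed for 0 of the 60 tested at GV, 0 of 55 at MII and 1 of 56 at PN5, where 0.043%, 2.28% and 6.1% of all genes were called. That gene was Anapc2, a subunit of the APC/C, at 2.80 ± 0.434 FPKM in KO and 0.954 ± 0.165 FPKM in WT zygotes (0.96 ± 0.20, adjusted p = 0.040). At the 2-cell stage 7 of 65 rose and 27 fell, with a median of -0.34 beside -0.44 over all genes tested. The shares of all genes that rose and fell were those given above, 14.0% and 40.3%.

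In the list named for CDK1 partners and other M-phase cyclins, 1 of 9 was higher in KO 2-cell embryos and 7 lower. That list also holds Ccne1, Ccne2, Cdk2, Cdk7, Ccnh and Mnat1, so its counts are not those of M-phase cyclins alone. Cks1b, the close relative of Cks2, was higher, at 1244 ± 315 FPKM in KO and 470 ± 39.3 FPKM in WT (adjusted p = 0.0010). Ccne1, cyclin E1, was lower, at 13.7 ± 6.65 FPKM in KO and 66.9 ± 20.4 FPKM in WT, and so was Cdk7, the CDK-activating kinase, at 9.98 ± 1.95 FPKM in KO and 29.3 ± 3.00 FPKM in WT. Among the genes of the CDK1 phosphorylation switch 1 of 6 was higher and 4 lower. Wee1, the somatic counterpart of Wee2, was at 3.34 ± 0.749 FPKM in KO and 12.1 ± 1.60 FPKM in WT (-1.60 ± 0.23, adjusted p = 0.00085), opposite in direction to Wee2. Cdc25c was lower too, at 8.45 ± 3.26 FPKM in KO and 32.5 ± 1.50 FPKM in WT, while Chek1, a checkpoint kinase, was higher, at 67.0 ± 10.5 FPKM in KO and 39.8 ± 11.8 FPKM in WT.

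In the MOS and MAP kinase list 2 of 5 were higher in KO 2-cell embryos, as Mos itself was, and 1 was lower. The kinases Map2k1, at 62.4 ± 13.3 FPKM in KO and 25.8 ± 6.45 FPKM in WT, and Mapk3, at 49.6 ± 7.24 FPKM in KO and 19.8 ± 9.33 FPKM in WT, were the higher ones. Map2k2 was lower, at 0.601 ± 0.428 FPKM in KO and 2.91 ± 1.70 FPKM in WT. In the list of Greatwall and PP2A-B55, the phosphatase that reverses phosphorylation of other proteins by CDK1, 1 of 9 was higher and 3 lower. Mastl, the Greatwall kinase, was at 49.6 ± 6.65 FPKM in KO and 33.8 ± 1.12 FPKM in WT. The PP2A subunits Ppp2cb, at 6.69 ± 2.26 FPKM in KO and 34.4 ± 0.548 FPKM in WT, and Ppp2r2a, at 10.4 ± 0.495 FPKM in KO and 25.6 ± 3.59 FPKM in WT, were lower.

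In the APC/C list 2 of 19 were higher and 7 lower. Ube2d3, a ubiquitin-conjugating enzyme, was at 144 ± 8.80 FPKM in KO and 42.9 ± 9.50 FPKM in WT, and Fzr1, the activator CDH1, at 2.75 ± 0.234 FPKM in KO and 1.27 ± 0.686 FPKM in WT. Ube2c, the conjugating enzyme of the APC/C, was lower, at 71.0 ± 15.2 FPKM in KO and 172 ± 29.7 FPKM in WT, as was the subunit Cdc23, at 1.61 ± 0.138 FPKM in KO and 6.05 ± 1.62 FPKM in WT. For the activation of PLK1 and Aurora A, 4 of 6 were lower and 0 higher, among them Tpx2, an activator of Aurora A, at 20.1 ± 5.56 FPKM in KO and 43.1 ± 12.4 FPKM in WT, and Plk3, at 0.786 ± 0.528 FPKM in KO and 4.36 ± 2.58 FPKM in WT. In the list of prophase arrest, cAMP and protein kinase A, Prkar1a was the 1 of 7 called, at 5.86 ± 0.941 FPKM in KO and 15.4 ± 6.58 FPKM in WT. In the list of the calcium exit from metaphase II, 0 of 4 tested genes were called.

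In WT embryos 26 of 66 pathway genes rose from PN5 to the 2-cell stage and 9 fell, where 48.0% of all genes rose and 14.8% fell. Cdc25c rose, at 32.5 ± 1.50 FPKM in WT 2-cell embryos and 0.203 ± 0.185 FPKM in WT zygotes, and so did Ccne1, at 66.9 ± 20.4 and 2.78 ± 2.40 FPKM, and Ube2c, at 172 ± 29.7 and 21.0 ± 5.59 FPKM. Ppp2cb was listed at 0 in all WT zygote libraries. These 4 genes are also among those lower in KO than WT 2-cell embryos, in comparisons that share the WT 2-cell libraries. Map2k2 likewise rose in WT and was lower in KO embryos. Mastl, Map2k1, Chek1, Cks1b and Ube2d3 fell in WT at this step and were higher in KO than in WT embryos, again with the WT libraries shared. Pde3a (-1.27) and Ppp3ca (-0.68) fell in WT too, and their lists held 0 genes called higher in KO 2-cell embryos. The shares of all genes with such paired directions are not given. The interaction was called higher for 4 and lower for 30 of 67 genes, at 45.8% of all genes.

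At maturation 26 of 59 pathway genes rose in WT and 26 fell, where 31.1% of all genes rose and 52.8% fell. Ccna2, cyclin A2, rose to 61.1 ± 4.65 FPKM in WT eggs, against 12.7 ± 0.680 FPKM in WT GV oocytes, and Map2k1 to 164 ± 6.82 FPKM, against 45.4 ± 3.55 FPKM. Anapc15 fell to 1.77 ± 0.200 FPKM, against 17.1 ± 0.219 FPKM, and Cdc25c to 0.165 ± 0.0359 FPKM, against 2.73 ± 0.431 FPKM. In the cAMP and protein kinase A list 6 of 7 rose, Prkar2a to 16.3 ± 1.27 FPKM in eggs, against 4.75 ± 0.821 FPKM in GV oocytes, and Gnas fell. From MII to PN5 in WT, 1 of 55 rose, Anapc15 to 6.25 ± 0.479 FPKM, and 3 fell, Cdk7, Cdc26 and Pde3a, where 9.8% of all genes rose and 4.44% fell.

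**Figure D4:**
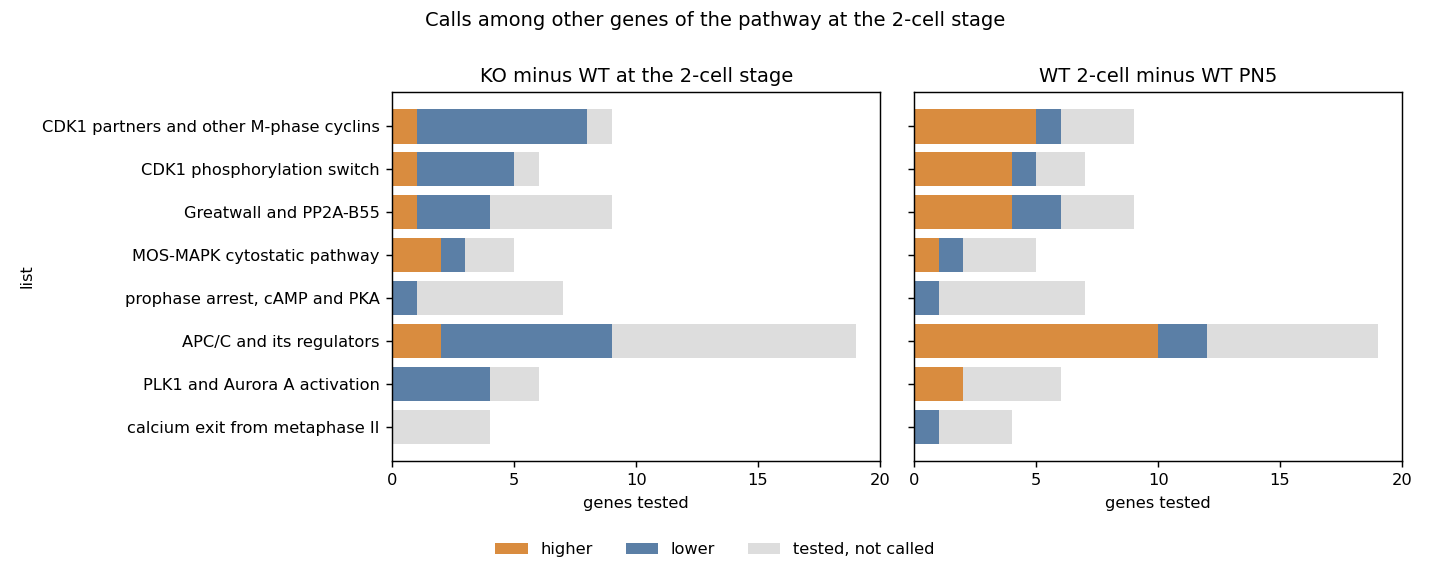
Number of tested genes in each of 8 pathway lists that were higher, lower or not called, for KO minus WT at the 2-cell stage (left) and for WT 2-cell embryos minus WT zygotes (right). Falls outnumber rises in 6 of 8 lists on the left, with 7 rises and 27 falls in all, and rises outnumber falls in all but 3 lists on the right, with 26 rises and 9 falls.

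Mos and Ccnb1 were set beside the other genes of a set of 6399 protein-coding genes across the 24 libraries, by Pearson correlation of log2(FPKM + 1). Regulators in that set were left out of the ranking. The libraries share stages and genotypes, so the values describe likeness of pattern only. Nearest to Mos were Leprot (r = 0.975), Gdpd1 (0.958), Pdia6 (0.954), Astl (0.953) and Lamb1 (0.947). Leprot averaged 22.1 FPKM in KO zygotes and 12.0 FPKM in WT zygotes, and Gdpd1 139 FPKM in KO and 74.9 FPKM in WT zygotes. Nearest to Ccnb1 were Atad1 (0.976), Kdelc1 (0.958), Smn1 (0.958), Sc5d (0.954) and Vps50 (0.953). Among the 45 pairs of regulators, Ccnb1 and Fbxo43 were most alike (r = 0.87) and Cdk1 and Fbxo43 least (r = -0.85), over 24 libraries from 4 stages.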

How the data were processed

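RNA of 24 libraries, each from 5 pooled oocytes or embryos, was sequenced after SMART-Seq HT cDNA synthesis, per the labels' protocols. The deposited values are FPKM per gene; StringTie and GRCm38 are named in the submitters' processing notes, and aligner, versions and filters are not given in the sources used here. Identifiers were matched to GENCODE M21 for 55227 of 55487 genes. FPKM is not a count, so each comparison was fitted with limma 3.58.1 (R 4.3.3, trend and robust settings) on log2(FPKM + 1), over genes at 1 FPKM or more in at least 3 libraries of the fit, with Benjamini-Hochberg adjustment. Fold changes are on that scale and understate those of low genes. There were 13 comparisons: KO against WT at 4 stages, the stage steps in each genotype, and their interactions. The fits were tested on simulated data. Steps between low FPKM values gave 7.65 to 12.3 M fragments per library, with 98.83% to 99.21% of values whole within 0.02, so 1 fragment on 1 kb is worth 0.0814 to 0.131 FPKM. Copies of the 10 genes were searched with BLAST 2.17.0 at 90% identity and 25% coverage. The named genes are all 10 regulators, pathway genes called before the 2-cell stage, up to 2 per list and direction by p at the 2-cell stage and 1 for WT steps, and the 5 genes most like Mos and Ccnb1. The members and lists were chosen with earlier results of these data known.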

Additional observations from a re-analysis of the deposited data

Results flagged for a closer look

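The step between stages differed between the genotypes, by the limma interaction test, for these regulators. From MII to PN5 Cks2 differed by -1.25 on the log2 scale, lower in KO (adjusted p = 0.045), a call lost without any one of 10 of the 12 libraries. From PN5 to the 2-cell stage Cks2 differed by 2.26 (adjusted p = 0.00032), with all 3 KO libraries above all 3 WT libraries in 2-cell embryos and below them in zygotes. Over the same step Ccnb2 differed by 1.34 (adjusted p = 0.0049, and 1.06 with adjusted p = 0.067 under TPM), Cdk1 by -1.50 (adjusted p = 0.00091) and Cdc20 by -2.36 (adjusted p = 0.0042).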

How the results depend on the processing

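Mos in 2-cell embryos rests on 67 fragments or fewer per library, and 3 libraries a group limit all calls. The number of regulators called between KO and WT ran, leaving out 1 library at a time, from 0 to 1 in GV oocytes, 0 to 4 in eggs, 0 to 6 in zygotes and 5 to 7 in 2-cell embryos. It ran from 1 to 5 for the WT step from MII to PN5, from 1 to 9 for the KO step, and from 0 to 7 for their interaction. The shares of all genes called in these fits are not given. With all 24 libraries in one fit 3 were called in zygotes, 3 for the WT and 3 for the KO step from MII to PN5, and 2 for the interaction. With no filter on low values 1 was called for the KO step. With the length trend removed 1 was called in eggs. The interaction gave 0 with no filter, with a pseudocount of 0.1, under median of ratios or TPM, with length or length and GC trends removed, and with a replicate block. Replicate numbers share only a number: no comparison had every same-numbered pair correlated over 0.1. With the block 7 regulators in place of 6 were called in 2-cell embryos, 6 in place of 7 for the KO step from MII to PN5 and 5 in place of 6 for the WT step from PN5 to the 2-cell stage. Removing length and GC trends and adding copies were chosen after seeing the data. Signs turned for uncalled differences between KO and WT. Under TPM these were -0.04 for Ccnb2 and -0.09 for Cdc20 in GV oocytes, -0.02 for Mos, -0.17 for Ccnb1, -0.13 for Ccnb2 and -0.15 for Cdk1 in eggs, 0.17 for Ccnb1 in zygotes and -0.02 for Cdc25b in 2-cell embryos. Under median of ratios they were 0.03 for Fbxo43, 0.18 for Wee2 and 0.16 for Cdc20 in eggs. With the length trend removed they were -0.01 for Cdc20 in GV oocytes, -0.00 for Ccnb2 in eggs and -0.03 for Cdk1 in zygotes. With length and GC trends removed they were -0.03 for Cdc20 in GV oocytes and -0.06 for Cdk1 in zygotes. With copies added they were -0.00 for Cdc20 in GV oocytes and -0.03 for Ccnb1 in eggs, and with a pseudocount of 0.1 Cdc20 in GV oocytes was -0.00. Leaving out 1 library gave, in GV oocytes, -0.27 to 0.05 for Mos, -0.05 to 0.19 for Ccnb2, -0.12 to 0.40 for Cks2, -0.46 to 0.02 for Wee2, -0.10 to 0.35 for Cdc25b, -0.26 to 0.48 for Cdc20 and -0.79 to 0.26 for Plk1. In eggs it gave -0.11 to 0.17 for Ccnb1, -0.01 to 0.10 for Ccnb2, -0.05 to 0.12 for Cdk1, -0.26 to 0.11 for Wee2 and -0.31 to 0.05 for Cdc20. It gave -0.16 to 0.01 for Ccnb1 in zygotes and -0.11 to 0.10 for Cdc25b in 2-cell embryos. The cause of these turns was not tested.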
